A study of Mus musculus with 24 samples.

Results

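The genes for voltage-gated calcium channels, voltage-gated sodium channels and HCN channels were examined in the mouse hippocampus across age and sex. They were taken as all probes whose annotated gene symbol begins with Cacn, with Scn and a number, or with Hcn and a number. By this rule 49 probes of 30 annotated genes were found, and 29 probes of 23 genes passed the filter on low values, 59.2% of the channel probes against 46.3% of all 25697 probes on the array. To pass, a probe had to exceed a normalized intensity of 16 in every array of some group. RefSeq names 44 genes with such symbols, of which 14 are not analysed here.

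Whole hippocampi, with CA1, CA2, CA3 and dentate gyrus pooled, came from C57BL6 mice that were aged with no genetic change and no drug, and the RNA of each mouse was hybridized to 1 array. The 6 groups were young females (FY, 3 months), adult females (FA, 12 months), old females (FO, 24 months), young males (MY, 3 months), adult males (MA, 12 months) and old males (MO, 24 months), with 4 mice each. All females were killed in diestrus, and the old females had stopped cycling, so that age and reproductive senescence cannot be told apart in females. The paper describes daily vaginal lavage for weeks in females only, so that sex and this handling cannot be told apart. In whole tissue a lower level can come from fewer cells of a type or from less RNA per cell, and these cannot be told apart either.

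Voltage-gated channels open when the membrane potential changes and let a chosen ion through. Sodium channels carry the rising phase of the action potential, calcium channels turn electrical activity into transmitter release, gene regulation and bursting, and HCN channels, which open on hyperpolarization, set the resting conductance and help to pace rhythmic firing. The pore is formed by a large alpha subunit, and smaller auxiliary subunits (alpha2delta, beta and gamma for calcium channels, beta for sodium channels) set how many channels reach the membrane and how they gate. In hippocampal neurons, calcium entry through L-type channels has long been studied in aging.

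No channel probe passed the test of any comparison. By limma, with Benjamini-Hochberg adjustment over the 11901 probes that passed the filter and a threshold of 0.05, 0 of 29 channel probes were called in each of 16 contrasts, the 9 pairs of groups, the 4 averaged contrasts and the 3 differences of an age change between the sexes. The share of all probes called was small as well. FO against FY had 0.714%, FO against FA had 0.361% and MO against MY had 0.101%. It was 0% in FA against FY, 0% in MO against MA and 0% in MA against MY. Between the sexes it was 0.0336% for FY against MY, 0.0504% for FA against MA, 0.176% for FO against MO and 0.336% for females against males with ages averaged. With sexes averaged it was 1.27% for old against young, 0.328% for old against adult and 0.0084% for adult against young, and it was 0% for each of the 3 differences of an age change between the sexes. At these shares 0 called of 29 is near the background and is no result about the channel genes, and a p above the threshold does not show that their levels were equal.

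Channel probes with an unadjusted p under 0.05 numbered 6 of 29 for MO against MY (20.7%, against 11.4% of all probes), 2 higher and 4 lower in MO. Without MO replicates 1 and 3, the arrays that stood apart, it was 4 of 29, against 6.34% of all probes. FA against FY had 3 of 29 (10.3%, against 11% of all probes), and FO against FA and FY against MY had 2 each (6.9%, against 5.27% and 6.97% of all probes). MO against MA, FA against MA and FO against MO had 1 each (3.45%, against 5.5%, 6.55% and 9.68%), and FO against FY and MA against MY had 0 (against 6.65% and 2.07%). Among the averaged contrasts there were 2 of 29 for old against young (6.9%, against 11.5% of all probes), 2 for old against adult (against 6.6%), 1 for adult against young (against 2.96%) and 0 for females against males (against 10.3%). The differences of an age change between the sexes gave 2 from young to adult (against 9.39%), 1 from young to old (against 5.87%) and 1 from adult to old (against 3.85%). In some pairs of groups the 4 values of a probe did not overlap. Of the 29 channel probes FY was set apart in this way from FA in 3 and from MY in 3. FO was set apart from FY in 2 and from FA in 1, and MY from MA in 2 and from MO in 2. The remaining pairs had 0. Among the probes set apart were Cacnb1, Cacnb2 and the dimmer Scn3b probe. These counts were not compared with the share over all probes, so they are no result about the channel genes. For the same reason a lack of overlap named below is no evidence of a difference by itself. The test named in the study's methods, which has no correction across genes after its post hoc step, called 1 channel probe, Cacna2d1 in MO against MY, where it called 2.13% of all probes. It called 0 channel probes in the other 8 pairs, where it called 1.02% of all probes in FA against FY, 1.72% in FO against FY, 1.25% in FO against FA, 0.311% in MA against MY, 0.781% for MO against MA, 0.714% for FY against MY, 0.664% for FA against MA and 2.48% for FO against MO.

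The intervals show what sizes of change the data leave room for. For old against young with sexes averaged (8 mice a side) the 95% interval of 25 of 29 channel probes lay inside 1.5-fold in both directions (86.2%, against 90.4% of all probes). For females against males with ages averaged (12 mice a side) that of 27 of 29 did (93.1%, against 97%). Within 1 sex the intervals were wider, with 19 of 29 inside 1.5-fold in FO against FY (65.5%, against 79% of all probes). In MO against MY 16 of 29 were inside it (55.2%, against 75.6%). The median half-width of the interval was 0.39 for the channel probes and 0.28 for all probes in these contrasts within 1 sex, so the channel probes were measured less precisely. The median log2 fold change of the channel probes was 0.04 for FO against FY (all probes -0.00), -0.01 for MO against MY (all probes -0.03), -0.01 for old against young (all probes -0.02) and -0.00 for females against males (all probes 0.01).

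**Figure D1:**
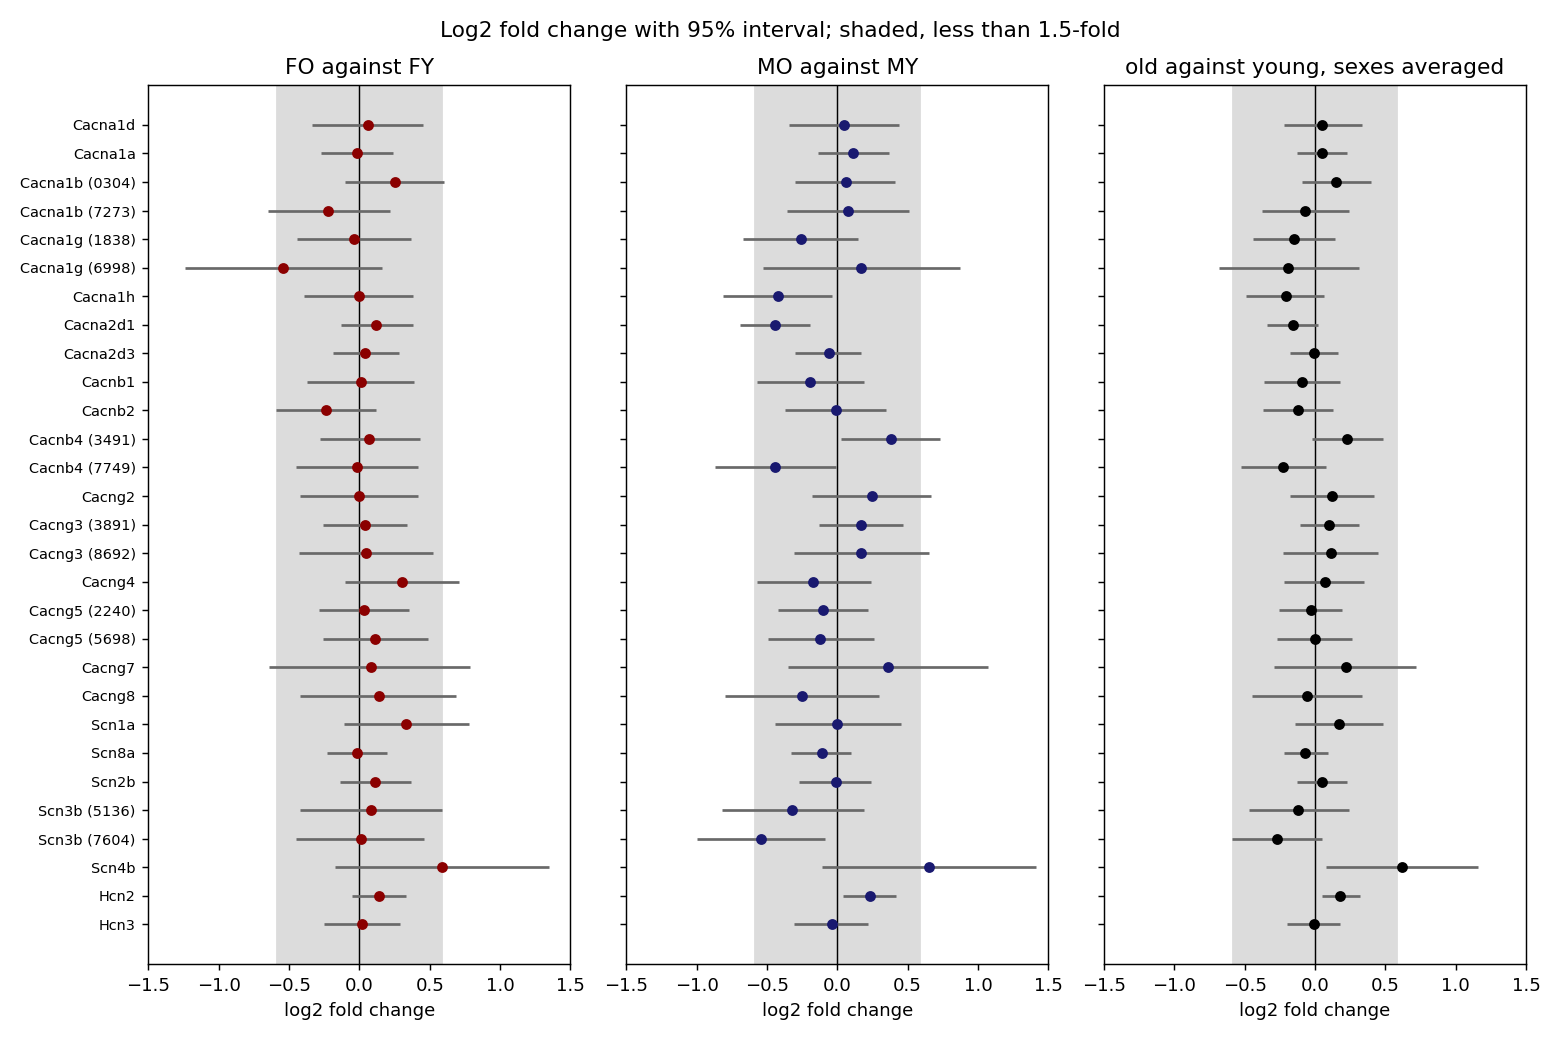
Log2 fold change of the 29 channel probes for FO against FY, MO against MY and old against young with sexes averaged, with 95% intervals from limma; digits in brackets are the last 4 of the probe identifier where a gene has 2 probes. The shaded band marks changes under 1.5-fold, and the intervals of 25 of 29 probes stay inside it in old against young, 19 in FO against FY, and 16 in MO against MY. Of all probes 90.4%, 79% and 75.6% did so, in the same order.

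Some arrays stood apart. The root mean square deviation of the channel probes from their group mean, on the log2 scale, was 0.526 for MO replicate 1 and 0.529 for MO replicate 3, and 0.135 to 0.364 for the other 22 arrays. Over all probes that passed the filter the same measure was 0.356 and 0.335 for these arrays. MO replicate 3 held the highest or lowest value of 24 arrays for 12 of 29 channel probes (41.4%, against 27.1% of all probes), and MO replicate 1 for 10 of 29 (34.5%, against 28.1% of all probes). For several genes in which these arrays held an extreme value, fold changes are also given without 1 or both of them.

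Marker lists of regions and cell types were also displaced in MO replicate 3. The mean log2 deviation of the 6 CA1 pyramidal markers that passed the filter (6 of 6 annotated) was -0.97 in this array and -0.29 to 0.36 in the other 23. It was carried mainly by Fibcd1 and Spink8, at 215.8 and 155, each the lowest of all arrays. Man1a was low too, at 14.7, but FO replicate 2 had 13.1. Wfs1, Mpped1 and Pou3f1 also stood within the range of the other arrays. For the 6 CA3 markers (6 of 6 annotated) the score was -1.10, against -0.26 to 0.35, with 5 of 6 at their lowest here. For Prox1 and C1ql2 of the dentate granule list (2 of 4 annotated) it was -1.73, against -0.65 to 0.57. The choroid plexus, oligodendrocyte precursor and astrocyte lists were at their lowest in this array as well, at -2.49, -0.35 and -0.20, against -1.79 to 3.09, -0.17 to 0.29 and -0.14 to 0.42 in the other arrays. Of the choroid plexus markers 3 of 5 were lowest here, and of the precursor markers only Gpr17, at 72. The astrocyte markers were mixed, with Aqp4 lowest here, at 489.3, and Aldh1l1 highest, at 171.5. The neocortex list (8 of 9 annotated) was at its highest, at 0.74, against -0.55 to 0.43, with 4 of 8 markers highest here. The thalamus list (5 of 8) stood at 0.48, against -0.26 to 0.30, through 3 of its 5 markers (Ramp3, Rora and Tnnt1), and the interneuron list (4 of 6) at 0.39, against -0.24 to 0.26, with 2 of 4 markers highest here. The striatum, oligodendrocyte, microglia, endothelium and smooth muscle lists stayed within the range of the other arrays, the striatum at 0.12, against -0.20 to 0.31. MO replicate 1 had a CA3 score of 0.35, level with the highest of the other arrays, and CA1, dentate and neocortex scores of -0.22, 0.31 and -0.40 that lay within those of the other arrays. Its choroid plexus score was 1.46, against -1.79, -2.49 and -1.76 in MO replicates 2, 3 and 4. The astrocyte score of MO replicate 1 was 0.35, against 0.10, -0.20 and -0.01 in the same arrays. Of the hippocampal markers that passed the filter, Man1a and Iyd were below 16 in MO replicate 3 and the others were above it there. The summed intensity of the CA3 markers was 1865 to 2544 in FY, 2192 to 2598 in FA, 2204 to 2689 in FO, 2271 to 2793 in MY, 1894 to 2891 in MA and 1312 to 2915 in MO. That of the neocortex markers was 1604 to 2078 in FY, 1607 to 2546 in FA, 1471 to 2354 in FO, 1329 to 2078 in MY, 1469 to 2511 in MA and 1360 to 3011 in MO. The part of tissue make-up in the channel values was not tested.

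**Figure D2:**
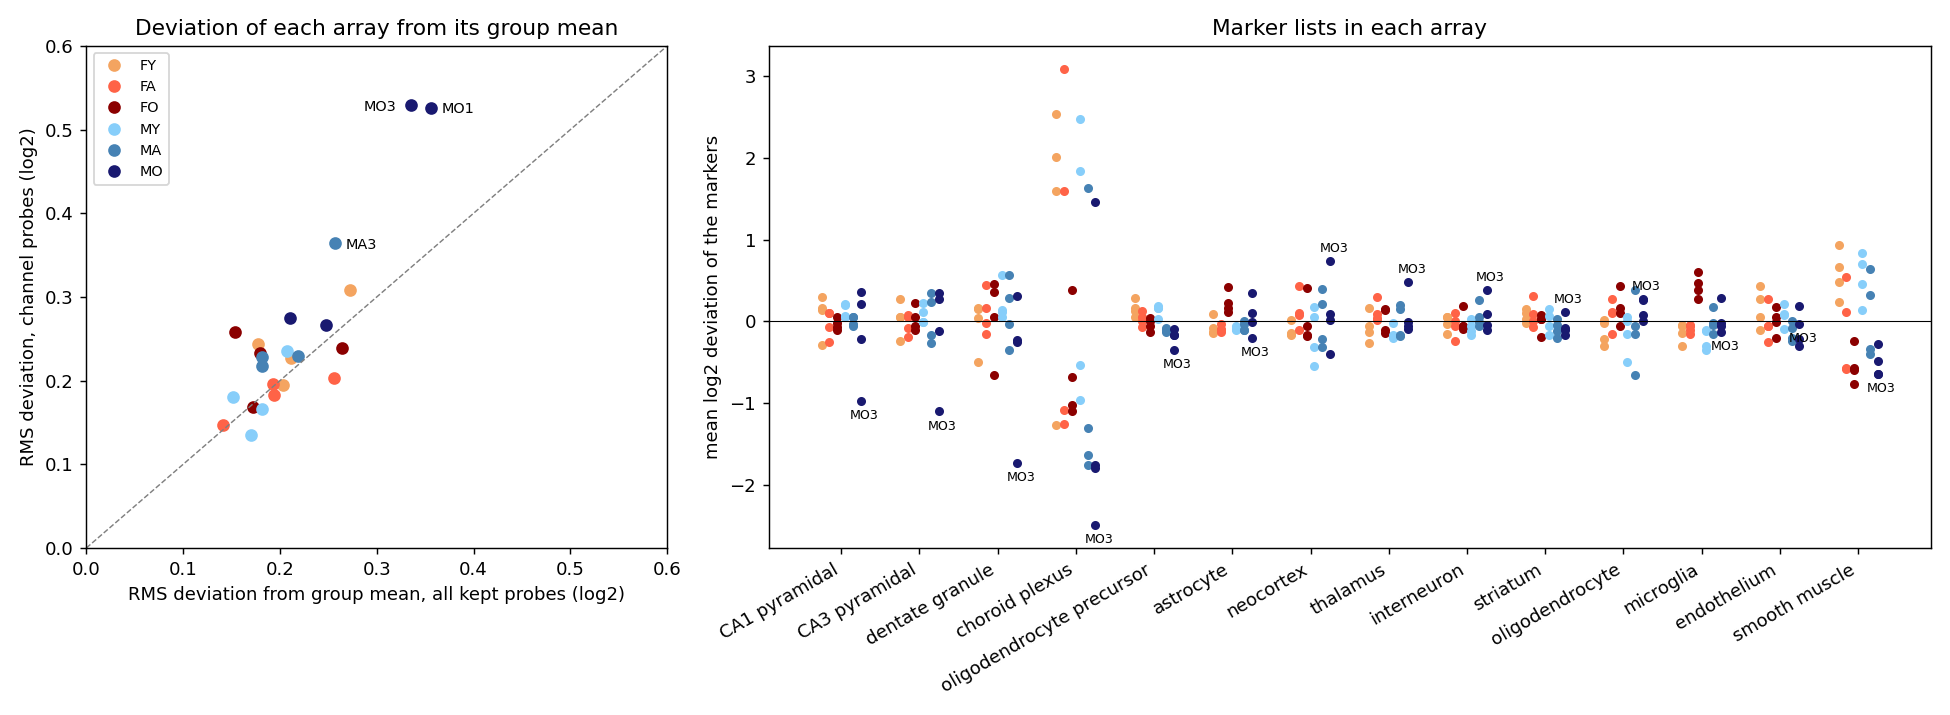
Left, root mean square deviation of each array from its group mean (log2) for the channel probes against the same for all probes that passed the filter; MO1 and MO3 (MO replicates 1 and 3, at 0.526 and 0.529) lie above the other arrays. Right, mean log2 deviation of each marker list in each of the 24 arrays, colored by group; MO3 is lowest for the CA1, CA3, dentate, choroid plexus, oligodendrocyte precursor and astrocyte lists and highest for the neocortex, thalamus and interneuron lists.

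The L-type pore subunits were represented by 1 gene. Cacna1d encodes an L-type pore that opens at comparatively negative voltages. Its normalized intensity was 23.9, 26.3, 33.1 and 23.3 in FY, 16.5, 21.9, 35.1 and 25.2 in FA, and 22, 30.7, 30.2 and 28 in FO. In males it was 26.3, 28.3, 27.6 and 26.4 in MY, 28.5, 36.5, 30.8 and 34 in MA, and 36.9, 21, 28.2 and 28.4 in MO. All values were low, close to the floor, and the groups overlapped except MA and MY, where each of the 4 MA values was above each of the 4 MY values. The log2 fold change was 0.25 (95% interval -0.14 to 0.65, adjusted p = 0.999) for MA against MY and 0.05 (95% interval -0.22 to 0.33, adjusted p = 0.928) for old against young. FA against MA was the contrast of this gene with the smallest p, -0.44 (95% interval -0.83 to -0.05, adjusted p = 0.753). Cacna1c, the major L-type pore of the brain, has 4 probes on the array and none passed the filter, so no value is given for it. The retinal pore gene Cacna1f did not pass it either.

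The CaV2 pore subunits carry the calcium current that triggers transmitter release. Cacna1a, the P/Q-type pore, had intensities of 108, 102, 118 and 100 in FY, 89.1, 111, 122 and 132 in FA, and 111, 94.7, 114 and 104 in FO. The male values were 98.1, 108, 91.4 and 117 in MY, 92.7, 105, 109 and 114 in MA, and 105, 96.1, 135 and 114 in MO. The 6 groups overlapped, and the log2 fold change was 0.05 (95% interval -0.13 to 0.23, adjusted p = 0.894) for old against young and 0.02 (95% interval -0.13 to 0.17, adjusted p = 0.958) for females against males. Both intervals lay inside 1.5-fold.

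Cacna1b, the N-type pore, has a pair of probes that passed. By the brighter one the values were 21.8, 27.4, 28.6 and 29.8 in FY, 26.7, 23.2, 38.6 and 27.6 in FA, and 30.1, 34.2, 35.3 and 28.2 in FO. In males they were 32.6, 21.4, 30.5 and 36.9 in MY, 29, 30.5, 23.8 and 25.5 in MA, and 36.8, 30.9, 29.4 and 27.4 in MO. All values were low and overlapped between groups. Old against young gave 0.15 (95% interval -0.09 to 0.40, adjusted p = 0.693), and the dimmer probe gave -0.07 (95% interval -0.38 to 0.24). In FO against FY the probes differed in sign, at 0.25 and -0.22, and neither interval left out 0.

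The T-type (CaV3) pore subunits open near the resting potential and support burst firing. Cacna1g had intensities of 165, 186, 97.6 and 146 in FY, 123, 126, 115 and 182 in FA, and 128, 165, 145 and 129 in FO by its brighter probe. In males these were 162, 145, 137 and 126 in MY, 145, 121, 192 and 106 in MA, and 86.3, 126, 139 and 131 in MO. The 6 groups overlapped, and FA replicate 4 lay far above the other FA arrays. Old against young gave -0.15 (95% interval -0.44 to 0.14, adjusted p = 0.762), and -0.07 without MO replicate 1, the lowest array. The dimmer Cacna1g probe had a mean of 42.5 ± 13.2 in FY, 22.6 ± 5.23 in FA, 29.6 ± 10.6 in FO, 23.9 ± 5.98 in MY, 30.3 ± 19.6 in MA and 26.3 ± 10.3 in MO (SD, n = 4). For FA against FY this probe gave -0.89 (95% interval -1.59 to -0.18, limma adjusted p = 0.357), where the brighter one gave -0.11, so the probes of this gene did not agree in size.

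Cacna1h is another T-type pore. Its intensities were 1050, 1140, 672 and 1130 in FY, 1050, 1030, 1090 and 1050 in FA, and 1110, 1130, 699 and 1030 in FO. The male values were 1020, 955, 995 and 1150 in MY, 1110, 801, 821 and 1170 in MA, and 827, 937, 504 and 891 in MO. FY replicate 3, FO replicate 3 and MO replicate 3 were the low arrays of their groups. The 4 MO values were each below the 4 MY values, with -0.42 (95% interval -0.81 to -0.04, adjusted p = 0.387) for MO against MY, and old against young gave -0.21 (95% interval -0.49 to 0.06, adjusted p = 0.584). When MO replicate 3 alone was left out the value for MO against MY was -0.22 (SE 0.17, adjusted p = 0.754), and -0.17 (SE 0.19, adjusted p = 0.933) without MO replicates 1 and 3, so its size rested on MO replicate 3. Old against young was -0.11 without MO replicate 3 and -0.09 without both. MO replicate 3, at 504, is the array in which the CA1, CA3 and dentate lists were low and other lists were displaced too. A link of any of them to Cacna1h was not tested.

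The alpha2delta subunits sit on the outer face of the membrane and bring calcium channels to it. Cacna2d1, the target of gabapentin, had intensities of 637, 541, 580 and 618 in FY, 663, 681, 643 and 587 in FA, and 757, 709, 492 and 657 in FO. In males they were 637, 672, 587 and 840 in MY, 752, 601, 518 and 622 in MA, and 526, 513, 504 and 458 in MO. The 4 MO arrays were close together and each lay below each of the 4 MY arrays, with MY replicate 4 the highest of all 24. MO averaged 500 ± 29.4, against 684 ± 110 in MY (SD, n = 4 each). The log2 fold change for MO against MY was -0.44 (95% interval -0.69 to -0.19, adjusted p = 0.161), which was the smallest adjusted p of any channel probe in any contrast. In females the same contrast ran the other way, with 654 ± 115 in FO against 594 ± 42.8 in FY and 0.12 (95% interval -0.13 to 0.38, adjusted p = 0.973).

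The difference between the sexes was tested directly. The young-to-old change of Cacna2d1 in females less that in males was 0.56 (95% interval 0.20 to 0.92, adjusted p = 0.841), with an unadjusted p of 0.00361. FO against MO gave 0.37 (95% interval 0.12 to 0.62, adjusted p = 0.265), and MO against MA gave -0.31 (95% interval -0.56 to -0.05, adjusted p = 0.897). None of these passed. Without MO replicates 1 and 3 the MO against MY value was -0.48 (SE 0.15, adjusted p = 0.497), as large as with them, and the difference between the sexes was 0.61 (SE 0.20, adjusted p = 0.879).

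Cacna2d3, another alpha2delta gene, had intensities of 514, 537, 417 and 552 in FY, 503, 567, 656 and 582 in FA, and 570, 507, 498 and 495 in FO. Male values were 585, 596, 560 and 609 in MY, 582, 568, 469 and 553 in MA, and 428, 618, 664 and 573 in MO. Here MO was the most spread group, with MO replicate 1 low and MO replicate 3 high. Each FY value was below each MY value, with -0.23 (95% interval -0.46 to 0.01, adjusted p = 0.734). Females against males with ages averaged gave -0.09 (95% interval -0.22 to 0.05, adjusted p = 0.71), and old against young gave -0.01 (95% interval -0.18 to 0.16, adjusted p = 0.982).

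The beta subunits bind the pore from the cytoplasm and promote its delivery to the membrane. Cacnb1 lay near the floor, with deposited intensities of 16.6, 27, 26.6 and 20.2 in FY, 14.7, 14.4, 14.8 and 15.4 in FA, and 22.9, 32.6, 20.9 and 15.4 in FO. The male values were 21, 21.7, 20.5 and 20.8 in MY, 24.8, 10.7, 19.8 and 20.2 in MA, and 19.8, 17.5, 11.9 and 20.6 in MO. All 4 FA values were below 16 and count as 16 in the fit, so every fold change against FA is set by the floor. FA against FY gave -0.47 (95% interval -0.85 to -0.09, adjusted p = 0.365) and FO against FA gave 0.48 (95% interval 0.10 to 0.86, adjusted p = 0.814). Adult against young with sexes averaged gave -0.27 (95% interval -0.54 to -0.00, adjusted p = 0.989). Only in FY and MY did this probe exceed 16 in every array, so it passed the filter through the young groups alone. Its lower adult values, also counted above for FA against FY and adult against young, are thus no evidence of a difference.

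Cacnb4, the beta gene mutated in the lethargic mouse, had a bright and a dim probe. The bright probe had 840, 1060, 833 and 965 in FY, 959, 1090, 1030 and 1110 in FA, and 987, 927, 1100 and 877 in FO. In males it had 909, 922, 739 and 873 in MY, 830, 1060, 1210 and 932 in MA, and 768, 1050, 1860 and 1030 in MO. MO replicate 3, at 1860, was the highest of all arrays, and without that array the MO values lay inside the range of the other groups. MO against MY gave 0.38 (95% interval 0.03 to 0.73, adjusted p = 0.392), and old against young gave 0.23 (95% interval -0.02 to 0.48, adjusted p = 0.499). The dim probe ran the other way, with 23.9 ± 5.56 in MO and 32.7 ± 9.06 in MY (SD, n = 4 each) and a log2 fold change of -0.44 (95% interval -0.87 to -0.01, adjusted p = 0.428), so this gene has no single direction. Leaving out MO replicate 3 alone, the bright probe gave 0.13 for MO against MY (SE 0.13, adjusted p = 0.801) and 0.10 for old against young. Without MO replicate 1, the lowest MO array, these were 0.56 (SE 0.16, adjusted p = 0.123) and 0.32, and without both they were 0.28 (SE 0.13, adjusted p = 0.775) and 0.18.

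Cacnb2 was described by its group means only. It averaged 156 ± 15.4 in FY, 115 ± 7.09 in FA, 132 ± 4.94 in FO, 130 ± 9.30 in MY, 139 ± 28.7 in MA and 135 ± 45.8 in MO (SD, n = 4). Each FA value and each FO value was below each FY value. FA against FY gave -0.43 (95% interval -0.79 to -0.08, adjusted p = 0.375), and FO against FY gave -0.24 (95% interval -0.59 to 0.12, adjusted p = 0.92).

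The gamma genes are annotated with the calcium channels by name, but several of their products (Cacng2, also called stargazin, Cacng3, Cacng4 and Cacng8, with Cacng5 and Cacng7 as a second type) are auxiliary subunits of AMPA-type glutamate receptors. Of 8 annotated gamma genes 6 passed the filter. The muscle gene Cacng1 and Cacng6 did not. The 8 gamma probes that passed had log2 fold changes of -0.06 to 0.22 for old against young and of -0.23 to 0.16 for females against males, with 0 of 8 called by limma in either.

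Cacng4 had intensities of 31.3, 27.5, 32.8 and 25.6 in FY, 22, 21.3, 27.6 and 36.7 in FA, and 35.8, 34.1, 35.3 and 38.9 in FO. In males they were 31.5, 30.6, 34.4 and 39.3 in MY, 18.9, 32.7, 26.9 and 32.7 in MA, and 44.1, 28.1, 24.9 and 26.6 in MO. The FO values were each above the 4 FY values, with 0.30 (95% interval -0.10 to 0.71, adjusted p = 0.886). Old against adult gave 0.30 (95% interval 0.02 to 0.59, adjusted p = 0.743). MO replicate 1, at 44.1, was the highest of all arrays, and without it old against adult was 0.21.

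Cacng7 had deposited intensities of 12.5, 19.1, 38.7 and 13.5 in FY, 14.6, 13, 16 and 15 in FA, and 17.5, 13, 31.4 and 26.7 in FO. The male values were 19.7, 17.4, 26.6 and 22 in MY, 14, 16.8, 23 and 21.9 in MA, and 73.3, 19.8, 23.4 and 13.7 in MO. Values above 16 were found in 16 of 24 arrays, and the highest by far was MO replicate 1, at 73.3. Only in MY did every array exceed 16, so the probe passed the filter through MY alone. Old against adult gave 0.48 (95% interval -0.02 to 0.98, adjusted p = 0.743), with 0.24 without MO replicate 1 and 0.18 without MO replicates 1 and 3. For MO against MY the value was 0.36 with all arrays, -0.12 (SE 0.27, adjusted p = 0.891) without MO replicate 1 and -0.25 (SE 0.30, adjusted p = 0.940) without both, so its sign rested on MO replicate 1.

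Cacng8, the gamma gene most tied to hippocampal AMPA receptors, had intensities of 30.4, 29.2, 35.9 and 28.2 in FY, 28.8, 28.1, 42.9 and 35.5 in FA, and 38, 38.2, 33.4 and 27 in FO. In males they were 28.5, 35.6, 32.2 and 34.4 in MY, 21.1, 28.2, 26.4 and 39.4 in MA, and 53.8, 18.6, 11.9 and 35.2 in MO. Its MO values ran widest, with 53.8 in replicate 1 and 11.9 in replicate 3. Females against males gave 0.16 (95% interval -0.16 to 0.48, adjusted p = 0.795), and old against young gave -0.06 (95% interval -0.45 to 0.33, adjusted p = 0.948). The sign of old against young turned with the array left out, at 0.07 without MO replicate 3 and -0.22 without MO replicate 1. Females against males gave 0.07 and 0.27 without the same arrays.

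The remaining gamma genes are given by their group means. Cacng2 averaged 44.5 ± 4.44 (MY) to 53.8 ± 12.3 (MO), Cacng3 averaged 183 ± 37.6 (FY) to 218 ± 33.0 (MO) and Cacng5 averaged 161 ± 13 (FY) to 188 ± 22.7 (FA) by their brighter probes (SD, n = 4). Their log2 fold changes for old against young were 0.12, 0.10 and -0.03, and the dimmer probes of Cacng3 and Cacng5 gave 0.11 and -0.00. Without MO replicates 1 and 3 the brighter probes of Cacng2 and Cacng3 gave -0.01 and 0.02.

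Of the sodium channel pores, 2 of 5 annotated genes passed. Those that did not were Scn7a and the sensory neuron genes Scn10a and Scn11a. Scn1a, the pore that sustains firing of fast-spiking interneurons, had intensities of 446, 334, 360 and 380 in FY, 292, 429, 382 and 429 in FA, and 456, 408, 544 and 508 in FO. In males it had 361, 387, 331 and 441 in MY, 392, 406, 462 and 404 in MA, and 296, 250, 754 and 370 in MO. MO replicate 3, at 754, was the highest of all arrays, and MO replicate 2, at 250, was the lowest, and MO averaged 417 ± 230 (SD, n = 4). Old against young gave 0.17 (95% interval -0.14 to 0.48, adjusted p = 0.739), and the young-to-old change in females less that in males was 0.33 (95% interval -0.30 to 0.96, adjusted p = 0.878). Without MO replicate 3 old against young was 0.00, and without MO replicates 1 and 3 it was 0.01. FO against MO gave 0.33 with all arrays and 0.66 (SE 0.14, unadjusted p = 0.000137, limma adjusted p = 0.076) without MO replicate 3. Without that array the difference between the sexes was 0.66 (SE 0.20, adjusted p = 0.892) and MO against MY was -0.33 (SE 0.14, adjusted p = 0.562), and without both arrays these were 0.65 (SE 0.21, adjusted p = 0.879) and -0.31 (SE 0.16, adjusted p = 0.809). These differences thus rested on which MO arrays were kept. In MO replicate 3 the interneuron markers were at 0.39 and other lists were displaced too, and a link of any of them to Scn1a was not tested.

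Scn8a encodes the pore concentrated at the axon initial segment and nodes of Ranvier. It had 80, 89.2, 78.6 and 84.8 in FY, 79.6, 78.4, 97.4 and 99.1 in FA, and 77.1, 81.4, 84.9 and 84.9 in FO. In males it had 81.3, 80.4, 86.1 and 104 in MY, 86, 85.5, 72.6 and 84.6 in MA, and 79.5, 79.1, 77.4 and 87.6 in MO. Old against young gave -0.07 (95% interval -0.22 to 0.09, adjusted p = 0.806), and females against males gave 0.02 (95% interval -0.11 to 0.14, adjusted p = 0.96). MA replicate 3, at 72.6, lay below every other array.

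The sodium channel beta subunits set gating and also act as adhesion molecules. Scn2b had 548, 576, 503 and 510 in FY, 480, 539, 635 and 633 in FA, and 590, 585, 596 and 541 in FO. In males it had 555, 555, 515 and 488 in MY, 609, 493, 743 and 483 in MA, and 414, 540, 538 and 619 in MO. The groups overlapped, and old against young gave 0.05 (95% interval -0.13 to 0.23, adjusted p = 0.889). MA replicate 3, at 743, was the highest array.

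Scn4b, which contributes to resurgent sodium current, had the largest fitted difference between old and young mice of the 29 probes. Its intensities were 95.4, 65.7, 76 and 120 in FY, 123, 147, 129 and 134 in FA, and 162, 90.6, 132 and 152 in FO. In males they were 110, 118, 79.5 and 67.5 in MY, 87.5, 160, 73.1 and 110 in MA, and 60.9, 113, 409 and 150 in MO. The 4 FA values were each above the 4 FY values (0.61 on the log2 scale, limma adjusted p = 0.567). MO held both the highest array, replicate 3 at 409, and the lowest, replicate 1 at 60.9. Old against young gave 0.62 (95% interval 0.08 to 1.16, adjusted p = 0.339), with an interval that reaches more than 2-fold. The value was 0.59 (95% interval -0.17 to 1.35, adjusted p = 0.87) in females and 0.65 (95% interval -0.11 to 1.41, adjusted p = 0.516) in males. Without MO replicate 3 old against young was 0.37 (SE 0.20, adjusted p = 0.573) and MO against MY was 0.14 (SE 0.29, adjusted p = 0.909). Without MO replicate 1 they were 0.83 (SE 0.23, adjusted p = 0.0615) and 1.06 (SE 0.33, adjusted p = 0.144), and without both, which lie at opposite ends, 0.55 (SE 0.18, adjusted p = 0.236) and 0.51 (SE 0.29, adjusted p = 0.828). The size of the change thus rested on these arrays. In MO replicate 3 the neocortex and thalamus lists were high and other lists were displaced too, and a link of any of them to Scn4b was not tested.

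Scn3b had a pair of probes. The brighter one averaged 582 ± 46.1 in FY, 610 ± 78.7 in FA, 617 ± 72.7 in FO, 643 ± 67.6 in MY, 568 ± 83.6 in MA and 575 ± 264 in MO (SD, n = 4). MO replicate 3 had 220, the lowest of all arrays, and MO replicate 1 had 823, the highest. For MO against MY the probes gave -0.32 and -0.54 (SE 0.22, adjusted p = 0.341), and without MO replicates 1 and 3 they gave -0.04 and -0.45. Without MO replicate 3 alone they gave 0.09 and -0.29, so the sign of the brighter probe turned, and without MO replicate 1 they gave -0.54 and -0.73 (SE 0.22, adjusted p = 0.132). The dimmer probe is listed at 4.45 in MO replicate 3, below the floor.

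The HCN genes were Hcn2 and Hcn3. Hcn2, a pore found in many neurons of the brain, had 630, 621, 627 and 589 in FY, 603, 584, 597 and 625 in FA, and 738, 614, 673 and 700 in FO. In males it had 665, 592, 604 and 564 in MY, 641, 540, 718 and 618 in MA, and 587, 667, 818 and 792 in MO. FO averaged 681 ± 52.2, against 617 ± 18.9 in FY, and MO averaged 716 ± 108, against 606 ± 42.6 in MY (SD, n = 4 each). In each sex 3 of 4 old values were above all 4 young ones. Old against young gave 0.18 (95% interval 0.05 to 0.32, adjusted p = 0.227), with an unadjusted p of 0.0103, and old against adult gave 0.18 (95% interval 0.04 to 0.31, adjusted p = 0.614). Old against young was 0.15 (SE 0.06, adjusted p = 0.427) without MO replicate 3, the highest MO array, 0.23 (SE 0.06, adjusted p = 0.0506) without MO replicate 1, the lowest, and 0.20 (SE 0.06, adjusted p = 0.186) without both. The young-to-old change in females less that in males was -0.09 (95% interval -0.36 to 0.18, adjusted p = 0.918). Hcn3 averaged 76.5 ± 11.3 (FA) to 80.6 ± 7.54 (MY), and old against young gave -0.01 (95% interval -0.20 to 0.18, adjusted p = 0.981).

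**Figure D3:**
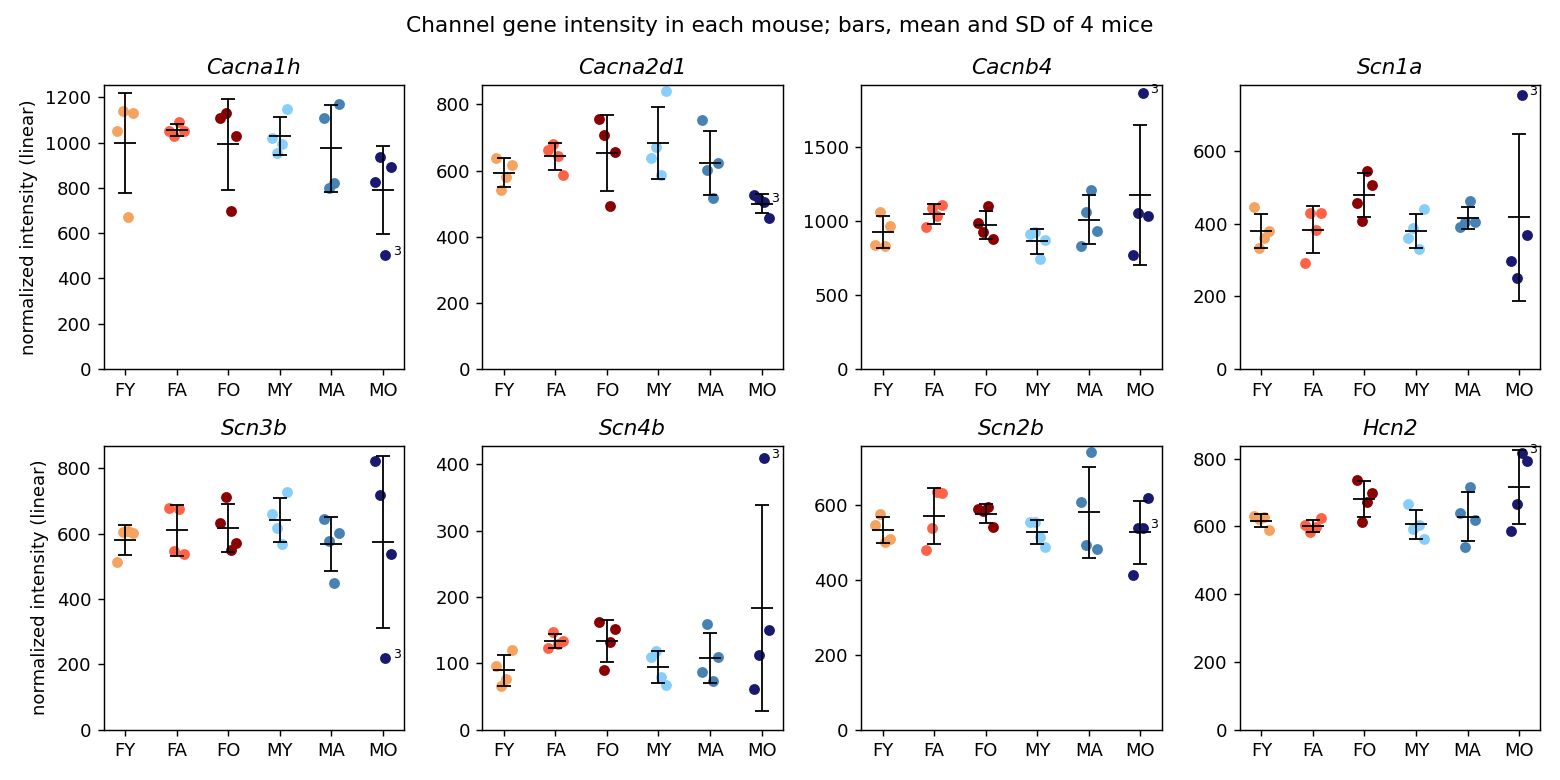
Normalized intensity (linear axis from 0) of 8 channel genes in each mouse, by the brighter probe of each gene, with the mean and SD of the 4 mice of each group as bars; the digit 3 marks MO replicate 3. The 4 MO arrays lie below the 4 MY arrays for Cacna1h and Cacna2d1, and MO replicate 3 is highest for Cacnb4, Scn1a and Scn4b and lowest for Cacna1h and Scn3b.

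The spread between mice was described for the same probes, with no test. The median variance of the channel probes on the log2 scale was 0.0408 in FY, 0.0332 in FA, 0.0302 in FO, 0.0244 in MY, 0.0596 in MA and 0.103 in MO. Over all probes that passed the filter it was 0.0308, 0.0180, 0.0239, 0.0162, 0.0281 and 0.0547 in the same groups. Of the 29 channel probes 13 had their largest variance in MO (44.8%, against 44.9% of all probes), and 21 were more variable in MO than in MY (72.4%, against 79.1%). Without the MO arrays that stood apart (MO1 and MO3), 14 of 29 were more variable in MO than in MY (48.3%, against 46.1% of all probes). The median variance in MO was then 0.0307 for the channel probes and 0.0124 for all probes. These arrays were picked for their deviation, so that leaving them out must lower the spread in MO. MO then also has fewer arrays than MY, so the lower count cannot show what the spread in MO rested on. Between FO and FY 12 of 29 were more variable in FO (41.4%, against 43.1%).

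**Figure D4:**
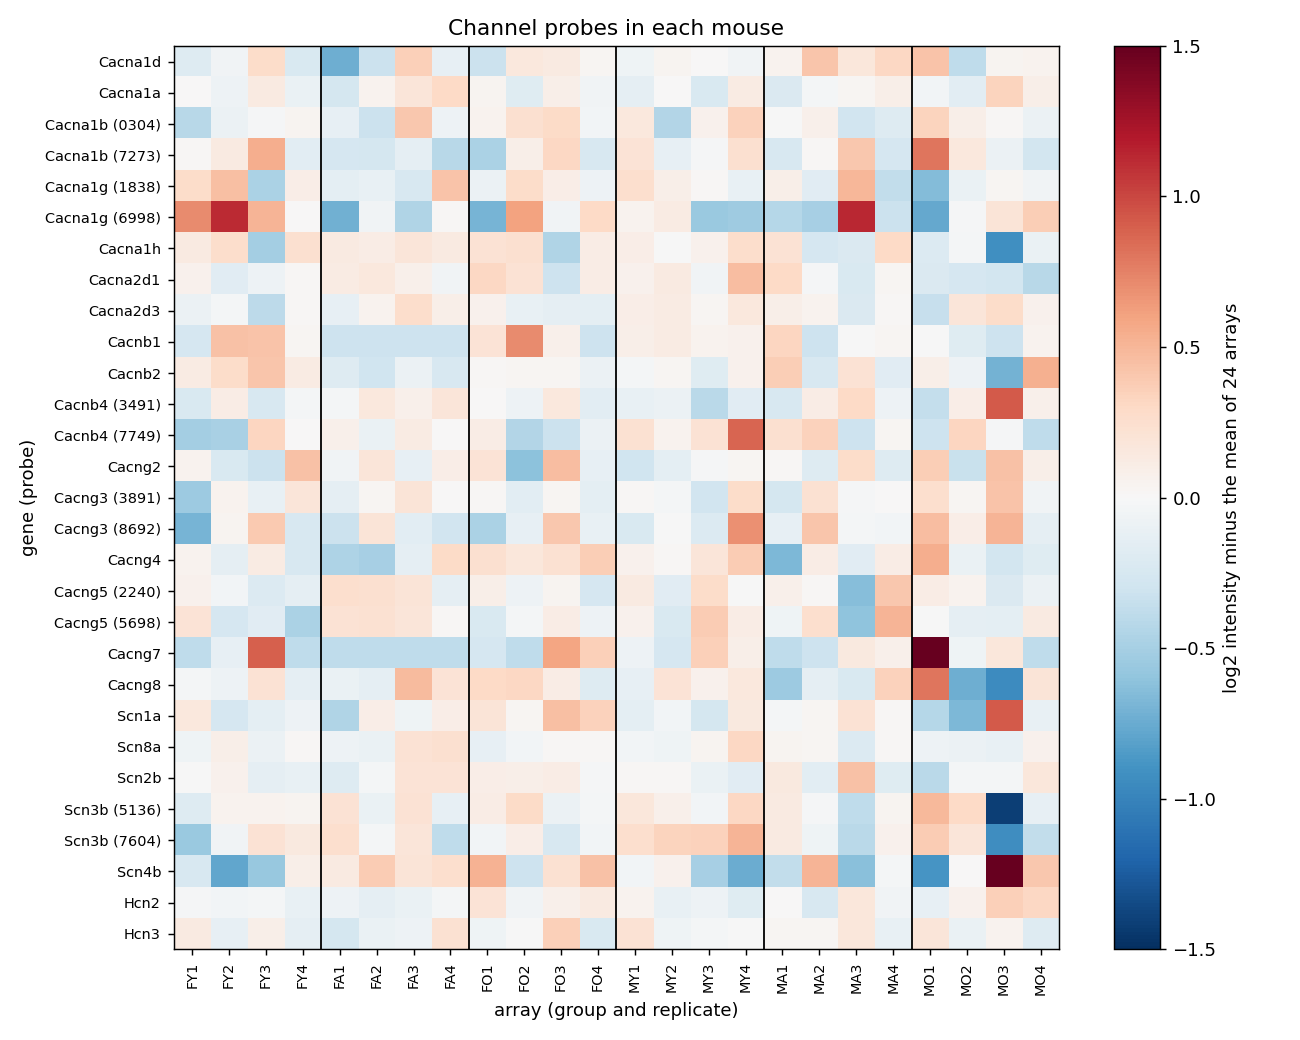
Log2 intensity of the 29 channel probes (rows) in each of 24 arrays (columns, by group and replicate), as the difference from the mean of all arrays; red is higher and blue lower, and digits in brackets are the last 4 of the probe identifier. The strongest colors lie in the columns MO1 and MO3, for Cacng7 and Scn4b (73.3 and 409).

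The partners of these channels were counted in the same contrasts. They are proteins that anchor, bind or regulate the channels, such as Ank3, the ankyrin that holds sodium channels at the axon initial segment, the FGF-like factors Fgf12 and Fgf13, calmodulin (Calm2 and Calm3), calcineurin (Ppp3ca), the kinase genes Camk2a and Camk2b, and Pex5l, which binds HCN channels. Of 40 genes listed 34 were annotated and 25 passed the filter, and limma called 0 of 25 in each of the 16 contrasts. Those with an unadjusted p under 0.05 numbered 2 of 25 for old against young (against 11.5% of all probes) and 3 for females against males (against 10.3%). There were 2 for MO against MY (against 11.4%), 1 for FO against FY (against 6.65%) and 3 for FY against MY (against 6.97%). FA against FY and old against adult had 2 each (against 11% and 6.6%), and the other contrasts had 1 or 0. Their median log2 fold change was -0.02 for old against young, 0.03 in FO against FY and -0.00 in MO against MY.

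Some markers of other cell types did pass the test with age in the same arrays. Of 5 microglia markers, Aif1, C1qa and Tmem119 were higher in FO than in FY and higher in old than in young mice with sexes averaged, by limma, and the median log2 fold change of the 5 was 0.78 and 0.48. C1qa also passed in FO against FA, old against adult and FO against MO, and 0 of 5 passed in MO against MY. Of the microglia markers that did not pass in FO against FY, Cx3cr1 averaged 414 in FO and 318 in FY, and P2ry12 averaged 72.1 in FO and 91.7 in FY. Both smooth muscle markers that passed the filter, Acta2 and Myh11 (2 of 4 annotated), were lower in old than in young mice, with a median of -1.08, and Acta2 was lower in FO than in FY. Of 3 oligodendrocyte precursor markers Gpr17 was lower in MO than in MY (-1.06, limma adjusted p = 0.00169) and in old than in young mice (-0.72, limma adjusted p = 0.000418). The median of the 3 was -0.15 and -0.12 in these contrasts. Of 3 endothelium markers Slco1c1 was lower in old than in young mice (-0.54, limma adjusted p = 0.0481), while the median of the 3 was 0.00. The other 10 lists of cell types and regions had 0 markers called in each of the 16 contrasts. The part of these cell types in the channel values was not tested.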

How the data were processed

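Each array (Illumina mouse Ref8 bead array) measured hippocampal RNA of 1 mouse, with 4 mice in each of 6 groups taken from the sample labels. The values used are probe intensities on a linear scale that the authors made by background subtraction and average normalization in GenomeStudio (2011.1 by the submitters' processing notes) and deposited as a table of normalized values. Each array has a mean of 206.642, and negative values make up 22.4%. An unnormalized table was also deposited, but its 48 columns are headed by chip position, name no sample and were not used. No genome build is given in the sources used here. Intensities below 16 were set to 16 and log2 was taken. Probes above 16 in every array of some group were kept (11901 of 25697). In R 4.3.3 with limma 3.58.1, 1 model over the 6 groups was fitted with a trended prior, and p-values were adjusted by Benjamini-Hochberg over all kept probes at 0.05, two-sided. Every adjusted p in the text comes from limma, and intervals are those of its moderated fit. The fit was tested on simulated data. Levels are given as deposited, and fold changes are on the floored log2 scale, which understates changes near the floor. The number of arrays limits the precision. The test of the methods used analysis of variance by age and sex, then Student-Newman-Keuls comparisons and a 1.2-fold limit, on the same values. Genes were named with per-array values if fixed for their place in hippocampal physiology or if among the 3 with the smallest p in an averaged or age by sex contrast, and the brighter probe stood for a gene. Cacnb2, Scn3b and Hcn3 were described further after their values were seen. The members, lists and alternatives were chosen with earlier results of these data known. Alternatives were other floors, filters and normalization, no trend, array weights, a replicate block, only the groups compared, the mean of a gene's probes, the methods' test and leaving out arrays. Gene symbols come from the platform annotation.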

Additional observations from a re-analysis of the deposited data

Results flagged for a closer look

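In 5 of 102 sets of 4 arrays, 1 gene in 1 group each, a single array lay far from the other 3 by Dixon's criterion, which chance alone meets in about 1 in 20 groups. Cacng7 had 73.3 in MO replicate 1, against 13.7 to 23.4 in the other MO arrays, and Cacng4 had 44.1 in the same array, against 24.9 to 28.1. Cacna1g had 182 in FA replicate 4, against 115 to 126 in the other FA arrays. Cacna2d3 had 570 in FO replicate 1, against 495 to 507 in the other FO arrays. Scn8a had 72.6 in MA replicate 3, against 84.6 to 86.0 in the other MA arrays.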

How the results depend on the processing

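The count of channel probes called stayed at 0 in 568 combinations of contrast and alternative, some of them by the methods' test and the rest by limma. It was 1 in MO against MY by the methods' test. For the median log2 fold change of the channel probes, MO against MY was -0.01 with all arrays, -0.07 with array weights and -0.08 without MO replicates 1 and 3, and -0.10 (without MO replicate 1) to 0.01 when 1 array was left out at a time. FO against MO was 0.02, and -0.04 (without FO replicate 3) to 0.05 when 1 array was left out. The 17 named genes were each followed in 1 contrast, the averaged or young-to-old one with their smallest p, and there they kept their direction in 587 comparisons and changed it in 3. Cacnb1 for adult against young was 0.00 and Cacng8 for females against males was -0.01 with a floor of 32, and Cacnb4 for old against young was -0.00 as the mean of its probes. In other contrasts of the text leaving out MO replicate 1 or 3 turned signs too, such as Cacng7 for MO against MY (0.36, and -0.12 without MO replicate 1) and Cacng8 for old against young (-0.06, and 0.07 without MO replicate 3). With the replicate number as a replicate block, MO against MY stayed at -0.01 and 0 channel probes were called. The deviations of same-numbered arrays of different groups had a median r of -0.00389 (-0.447 to 0.555 over 60 pairs). Over 180 other pairs it was 0.00589 (-0.554 to 0.489). These values pool all numbers and do not show whether the arrays of 1 number deviated together. Replicate 3 had neocortex marker scores of 0.41, 0.40 and 0.74 in FO, MA and MO, of 0.08 in FA, and of -0.14 and -0.31 in FY and MY. The labels do not say whether the numbers pair the mice. Normexp correction of the unnormalized table was not run because its columns name no sample. The cause of these shifts was not tested.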
